A study of Mus musculus with 6 samples.

Results

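Branched-chain amino acid catabolism was examined in the brown adipose tissue (BAT) of sST2-KO mice through 10 genes chosen by symbol: Bcat1, Bcat2, Bckdha, Bckdhb, Dbt, Bckdk, Ppm1k, Ivd, Mccc1 and Hibch. All 10 were found among the 35976 rows of the deposited count table, and all 10 were among the 14542 genes that passed the filter on low counts and were tested. The libraries came from male C57BL/6J mice aged 10 weeks, 3 of them sST2-KO and 3 their WT littermates, and values of a group are given in the order of its replicates 1 to 3. The sST2-KO mice lack an intron of Il1rl1 that holds the stop codon of the transcript for soluble ST2, removed by CRISPR/Cas9. Mice of both groups had undergone surgical BAT denervation and were exposed to 10 °C for 8 h, so neither an innervated nor a warm group entered the comparison.

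Leucine, isoleucine and valine are the branched-chain amino acids. A transaminase first moves their amino group to 2-oxoglutarate, and the branched-chain keto acid dehydrogenase complex of the mitochondrial matrix then commits the carbon skeleton to oxidation. A kinase switches this complex off and a phosphatase switches it on, and separate arms carry the carbon of each amino acid to acetyl-CoA or succinyl-CoA. Brown fat takes up and oxidizes branched-chain amino acids in the cold, and the carrier SLC25A44 brings them into its mitochondria.

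Of the 10 genes, 9 were lower in sST2-KO than in WT mice, and Bcat1, the cytosolic transaminase, did not pass the test. The fall ranged from a log2 fold change of -0.73 in Bcat2 to -1.88 in Bckdha, and the median over all 10 members was -1.22, against 0.034 over all genes tested. In 9 of 10 members the groups did not overlap, with all sST2-KO values the lower ones, which held for 19.7% of all genes tested. A lower level with an adjusted p under 0.05 was reached by 9 of 10 members and by 9.10% of all genes (edgeR, quasi-likelihood test, adjusted after Benjamini and Hochberg over all genes tested). Such a call with a fall of more than 2-fold was reached by 7 of 10 members and by 7.10% of all genes tested. The called members short of it were Bcat2 and Ppm1k. Among genes already called lower, 1033 of 1323 passed 2-fold, beside 7 of the 9 members, so the size of the fall does not set the members apart. Higher levels were called in 0 members and in 10.5% of all genes by edgeR, and DESeq2 also called 0, against 12.2% of all genes. At an unadjusted p under 0.05, 0 members and 19.6% of all genes were higher. In bulk tissue, fewer brown adipocytes and less of these transcripts in each adipocyte cannot be told apart.

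**Figure D1:**
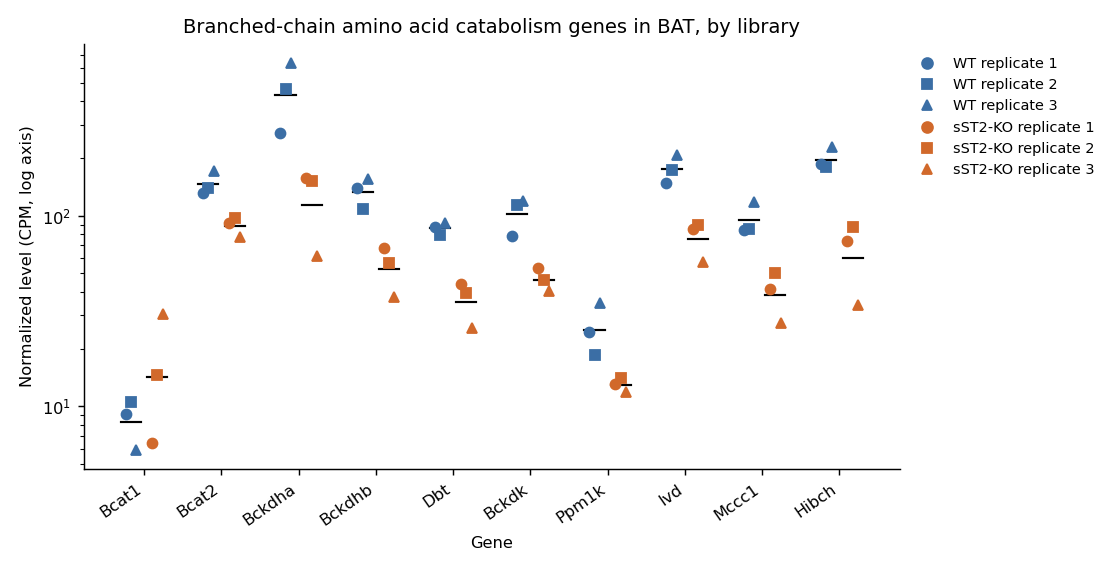
Normalized level (CPM, log axis) of the 10 members in each of the 6 libraries, with WT in blue, sST2-KO in orange, the marker shape giving the replicate number and the bars the geometric mean of 3 libraries. In every gene except Bcat1, the 3 sST2-KO points lie below the 3 WT points.

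The libraries held 8159442 to 12874809 counts, and members had between 48 counts (Bcat1) and 5122 counts (Bckdha), both in WT replicate 3. Levels are given as CPM, counts relative to the library size after scaling by edgeR's TMM method. The tissue label was checked with 7 brown adipocyte markers, which were detected in all 6 libraries and fell in 7 of 7 cases, with Ucp1 at 5229 to 10522 CPM in WT and 153 to 1042 CPM in sST2-KO mice. The summed level of 7 markers shared by all adipocytes was 13838 to 17132 CPM in WT and 5106 to 9981 CPM in sST2-KO mice, and 1 of the 7, Adipoq, passed the test (log2 fold change -1.24, adjusted p = 0.0335 by edgeR). The sum of 10 skeletal muscle markers was 6.53 to 1297 CPM in WT and 3630 to 15684 CPM in sST2-KO mice, highest in sST2-KO replicate 3, and the groups did not overlap in 10 of 10, although 0 passed edgeR's test and 8 had an unadjusted p under 0.05. In addition, 6 liver markers summed to 4786 CPM in WT replicate 2 and to at most 34.5 CPM elsewhere. The part of these cell types in the levels of the members was not tested. Il1rl1 itself had 19, 19 and 6 counts in WT and 55, 69 and 142 counts in sST2-KO libraries, which add up the soluble and membrane forms and so do not check the genotype.

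The transaminases catalyze the first, reversible step. Bcat2, on the plus strand of chromosome 7 from 45219577 to 45239152 (GRCm39), encodes the mitochondrial enzyme, which is the main form outside the brain. It measured 131, 139.8 and 171 CPM in WT and 91.9, 97.2 and 77.2 CPM in sST2-KO mice. All sST2-KO values lay below the WT values, and the mean fell by 39.7%, the smallest decrease among the 9 genes that passed. In edgeR's fit this was -0.73 ± 0.19 on the log2 scale (fold change ± standard error), with an adjusted p of 0.0386. The call was lost on leaving out any library except WT replicate 1 (adjusted p 0.0642 to 0.146).

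Bcat1, on chromosome 6 from 144939556 to 145022254 on the minus strand, encodes the cytosolic enzyme, known from brain, embryonic tissue and proliferating or activated immune cells. Its level was 9.14, 10.6 and 5.92 CPM in WT and 6.41, 14.6 and 30.5 CPM in sST2-KO mice. The groups overlapped, since sST2-KO replicate 1 lay within the WT range while replicate 3 was the highest of all. The log2 fold change of 1.00 had a standard error of 0.54 and did not pass (adjusted p = 0.222 by edgeR), and without sST2-KO replicate 3 it was 0.28 (adjusted p = 0.716). Sums of several marker lists were also highest in that library, among them the skeletal muscle markers given above. Of 5 fibroblast markers, 0 were called, and 3 had a higher and 2 a lower level. Their sum was 5137, 1591 and 1815 CPM in WT and 927, 1783 and 8179 CPM in sST2-KO mice. Of 8 macrophage markers, 1 was called higher, and their sum was 755 to 1018 CPM in WT mice, 1385 and 1291 CPM in sST2-KO replicates 1 and 2 and 5790 CPM in replicate 3. The 6 proliferation markers rose in 6 of 6 cases, from sums of 21.1 to 44.4 CPM in WT to 102.0, 127.8 and 179 CPM in sST2-KO mice. Of the 6 T cell markers tested, 5 were called higher, with sums of 12.1 to 13.6 CPM in WT and 103.6 to 129.6 CPM in sST2-KO mice. Of 6 neutrophil markers, 3 were called higher, with sums of 28.8 to 119.6 CPM in WT and 411, 133.9 and 666 CPM in sST2-KO mice, highest in replicate 3 as for Bcat1. The share of these cells in the Bcat1 signal was not tested.

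Within a library, the ratio of Bcat1 to Bcat2 counts does not depend on the scaling. It was 0.0698, 0.0755 and 0.0346 in WT and 0.0698, 0.150 and 0.395 in sST2-KO mice. On the log2 scale the means were -4.14 ± 0.62 (SD, n = 3) and -2.64 ± 1.25 (SD, n = 3). Their difference of 1.50 gave p = 0.2 in an exact two-sided permutation test, which cannot go below 0.1 with 3 libraries against 3. The difference was 0.85 without sST2-KO replicate 3 and 2.10 without sST2-KO replicate 1. Bcat2 had more counts than Bcat1 in all 6 libraries.

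The branched-chain keto acid dehydrogenase complex had the largest single fall. Bckdha and Bckdhb encode the alpha and beta subunits of its E1 decarboxylase, and Dbt encodes the E2 transacylase core that carries the lipoyl group. The 250 bases upstream of the annotated start of Bckdha and of Bckdhb, whose products form the same enzyme and whose transcripts both fell, are printed 5′ to 3′ on the strand of the gene, from GRCm39. The start is that of the Ensembl canonical transcript of GENCODE vM39. Capitals mark matches, on either strand, to 6 short motifs, which are spelled out after the sequences.
Bckdha, chr7:25358421-25358670, minus strand: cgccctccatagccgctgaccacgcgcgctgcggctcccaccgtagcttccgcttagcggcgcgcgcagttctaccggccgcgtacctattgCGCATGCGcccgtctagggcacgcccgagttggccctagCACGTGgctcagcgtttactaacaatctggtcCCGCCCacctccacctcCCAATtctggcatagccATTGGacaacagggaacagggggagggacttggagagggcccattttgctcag
Bckdhb, chr9:83806880-83807129, plus strand: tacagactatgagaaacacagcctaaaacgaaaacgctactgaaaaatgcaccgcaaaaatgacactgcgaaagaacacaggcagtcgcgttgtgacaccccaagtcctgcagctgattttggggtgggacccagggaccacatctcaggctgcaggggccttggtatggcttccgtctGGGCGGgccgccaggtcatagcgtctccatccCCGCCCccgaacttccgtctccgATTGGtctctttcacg

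Both windows held the GC box, GGGCGG, which was found upstream of 6 of 10 members and in 36.3% of 21757 windows of protein-coding genes. The box spelled CCAAT was present for 5 members, Bckdha, Bckdhb, Ppm1k, Ivd and Mccc1, against 36.5% of all windows. Bckdha alone among the members held the NRF1 core, GCATGCG, as 2 overlapping matches on opposite strands, and this motif occurs in 3.54% of windows. The E-box CACGTG, found in 6.26% of windows, was also upstream of Bckdha and of no other member. The CREB element TGACG was upstream of 1 member, Ppm1k, and of 18.0% of genes. The estrogen-related receptor element, searched as AAGGTCA, was upstream of 0 members and of 3.93% of genes. These matches describe letters in the window and no binding was measured.

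Bckdha lies on chromosome 7 from 25326168 to 25358420 on the minus strand and had the most counts of the members in every WT library. Its level was 273, 461 and 631 CPM in WT and 157, 152 and 61.8 CPM in sST2-KO mice. The WT libraries differed among themselves by 2.31-fold and the sST2-KO libraries by 2.54-fold, without overlap between the groups. The mean fell by 72.8%, with a log2 fold change of -1.88 ± 0.45 (standard error) and an adjusted p of 0.0286 by edgeR.

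Bckdhb, on chromosome 9 from 83807130 to 84011081 on the plus strand, measured 141, 108 and 156 CPM in WT and 68.1, 56.4 and 37.3 CPM in sST2-KO mice. Its mean fell by 60.1% (log2 fold change -1.32, standard error 0.27, adjusted p = 0.0193 by edgeR), again with no overlap. Dbt, on chromosome 3 from 116306686 to 116343633 on the plus strand, was the least variable member in WT mice, at 87.5, 79.3 and 92.0 CPM, and reached 43.6, 39.5 and 25.8 CPM in sST2-KO mice. It had the lowest adjusted p of the members, 0.0164 by edgeR, with a log2 fold change of -1.25 (standard error 0.23). Dld, the E3 dehydrogenase that this complex shares with pyruvate and 2-oxoglutarate dehydrogenase, fell as well (log2 fold change -1.47, standard error 0.28, adjusted p = 0.0175 by edgeR).

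The subunit transcripts were compared within libraries, with 3 ratios chosen after the values were seen. The ratio of Bckdhb to Dbt counts was steady, at 1.37 to 1.70 in WT and 1.43 to 1.56 in sST2-KO libraries, a log2 difference of -0.072 (p = 0.6, exact two-sided permutation test). Bckdha to Bckdhb was 1.94, 4.25 and 4.04 in WT and 1.66 to 2.70 in sST2-KO mice, a log2 difference of -0.56 (p = 0.3 by the same exact test). Bckdha to Dbt was 3.12, 5.82 and 6.87 in WT and 3.60, 3.85 and 2.40 in the sST2-KO group, a log2 difference of -0.64 (p = 0.3 by the same exact test). The deeper fall of Bckdha was within the spread of the libraries, and WT replicate 1 lay in the range of the sST2-KO libraries for both ratios.

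**Figure D2:**
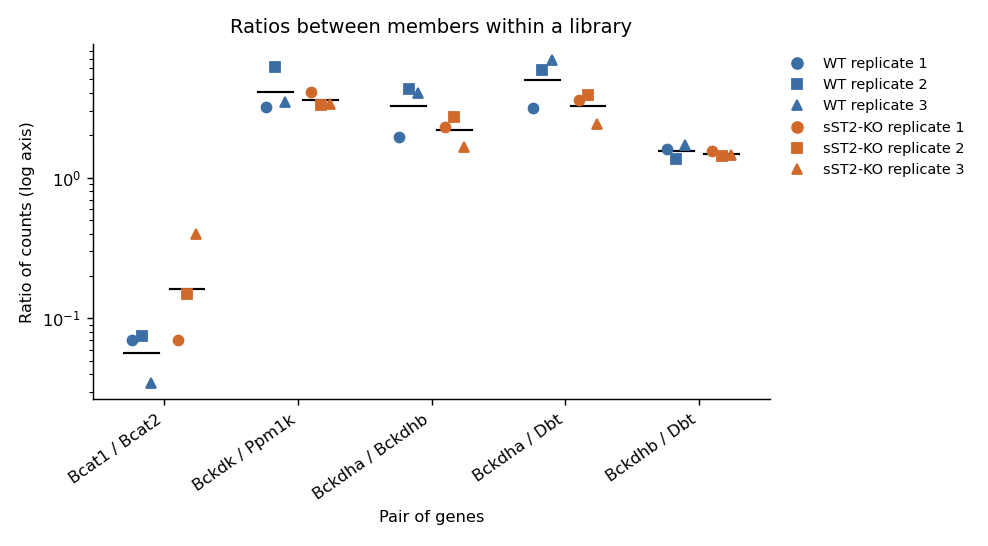
Ratios of counts between members within each library (log axis), with WT in blue, sST2-KO in orange, the marker shape giving the replicate number and the bars the geometric mean of 3 libraries. The groups overlap in all 5 ratios, and Bckdhb to Dbt stays between 1.37 and 1.70.

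Both enzymes that switch the complex fell. Bckdk, the kinase that inactivates the E1 alpha subunit, lies on chromosome 7 from 127502939 to 127510162 on the plus strand and is the only member that overlaps no other annotated gene. It was at 78.0, 114 and 119.8 CPM in WT and at 53.0, 46.2 and 40.2 CPM in sST2-KO mice, without overlap. In edgeR's fit it fell by 1.16 ± 0.22 on the log2 scale (standard error), with an adjusted p of 0.0176. Ppm1k, the mitochondrial phosphatase that reactivates the subunit, lies on chromosome 6 from 57483475 to 57512492 on the minus strand. Its level was 24.6, 18.6 and 34.8 CPM in WT and 13.0, 14.1 and 11.9 CPM in sST2-KO mice, a log2 fold change of -0.99 ± 0.26 (standard error) and an adjusted p of 0.0386 by edgeR. This call was lost on leaving out any library except WT replicate 2 (adjusted p 0.0665 to 0.138).

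The ratio of Bckdk to Ppm1k counts was 3.17, 6.15 and 3.45 in WT and 4.06, 3.27 and 3.36 in sST2-KO mice. The log2 means were 2.02 ± 0.52 and 1.83 ± 0.17 (SD, n = 3 each), a difference of -0.20 with p = 0.8 in an exact two-sided permutation test. Without WT replicate 2, which alone exceeded 5, the difference was 0.10. These transcripts do not measure the phosphorylation of the complex.

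The enzymes after the dehydrogenase fell in each arm represented. Ivd, on chromosome 2 from 118692141 to 118714335 on the plus strand, encodes isovaleryl-CoA dehydrogenase, the first step specific to leucine. Its values were 149, 174 and 209 CPM in WT and 85.3, 89.9 and 57.1 CPM in sST2-KO mice, a log2 fold change of -1.19 ± 0.24 (standard error) and an adjusted p of 0.0195 by edgeR. Mccc1, on chromosome 3 from 36010879 to 36054881 on the minus strand, encodes the biotin-containing subunit of 3-methylcrotonyl-CoA carboxylase, the step after Ivd on the way to acetyl-CoA and acetoacetate. It was at 84.3, 85.7 and 119 CPM in WT and at 41.2, 49.8 and 27.4 CPM in sST2-KO mice (log2 fold change -1.29, standard error 0.27, adjusted p = 0.0203 by edgeR). Hibch, on chromosome 1 from 52884079 to 52963346 on the plus strand, encodes 3-hydroxyisobutyryl-CoA hydrolase of valine breakdown. It had 186, 179.9 and 229 CPM in WT and 74.1, 87.7 and 33.9 CPM in sST2-KO mice, the largest fall after Bckdha (log2 fold change -1.61, standard error 0.35, adjusted p = 0.0229 by edgeR). In these 3 genes the lowest WT value stood above the highest sST2-KO value.

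The extremes of each group fell in the same libraries for all 9 genes that passed. WT replicate 3 was the highest WT library in 9 of 9 and sST2-KO replicate 3 the lowest sST2-KO library in 9 of 9, and Bcat1 was the mirror image, lowest of the WT libraries in the former and highest of the sST2-KO libraries in the latter. WT replicate 3 also had the lowest TMM factor (0.825) and sST2-KO replicate 3 the highest (1.14). Counts of mitochondrially encoded genes made up 6.80% of sST2-KO replicate 3 and 11.8% to 16.6% of the other libraries, and the part of this in the members' levels was not tested. With scaling by total counts, sST2-KO replicate 3 stayed the lowest in 9 of 9 genes, while WT replicate 3 was the highest in 6 of 9. The summed brown adipocyte markers were also highest in WT replicate 3 (15473 CPM, against 8147 and 9972 CPM) and lowest in sST2-KO replicate 3 (289 CPM, against 494 and 1749 CPM). The number of calls depended most on WT replicates 3 and 2. Without WT replicate 3, 0 of 9 genes kept an adjusted p under 0.05, when only 0.146% of all genes were called lower, although all 9 remained lower with an unadjusted p under 0.05. Without WT replicate 2, 3 of the 9 were called (Bckdhb, Dbt and Ppm1k) against 3.25% of all genes. Leaving out WT replicate 1 left 8 calls against 8.04% of all genes, and leaving out sST2-KO replicate 1, 2 or 3 left 7 calls against 6.91%, 6.20% and 4.65%. With all libraries, 9 were called with RLE factors (9.40% of all genes), a minimum of 10 counts in every library (9.52%), robust estimation (9.14%) and DESeq2 (10.9%), 8 without a filter (5.36%) and 7 with total counts (6.13%), and 0 with the replicate number as a block (0.00%).

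Levels were compared between genes per kilobase of the canonical transcript. In WT mice Bckdha was highest, at 238 ± 93.7 CPM per kilobase (SD, n = 3), followed by Bcat2 at 82.3 ± 11.7, and their libraries did not overlap. Mccc1, Hibch, Ivd, Bckdk, Bckdhb and Dbt came next, from 38.9 down to 25.8 CPM per kilobase, and each overlapped its neighbor in this order. Ppm1k (4.60) and Bcat1 (1.04) were lower, and the libraries of each stood apart from its neighbors. In sST2-KO mice Bckdha (64.7 ± 28.0) and Bcat2 (49.6 ± 5.78 CPM per kilobase, SD, n = 3) overlapped, as did Ppm1k (2.31) and Bcat1 (2.09). When all annotated exons were used in place of the canonical transcript, Bckdha and Bcat2 stayed first and Ppm1k and Bcat1 last in both groups. The order between them changed, as Mccc1 moved from rank 3 to rank 8 in both groups. Dbt moved to rank 3, from rank 8 in WT and from rank 7 in sST2-KO mice.

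The other genes of the pathway were taken from a list of 29, all of which were tested. Of these, 16 were called lower, against 9.10% of all genes tested, 1 was called higher, against 10.5%, and 12 did not pass. The median log2 fold change over the 29 was -1.07. Without WT replicate 3, 0 of the 29 were called lower, against 0.146% of all genes. Without WT replicate 2, 3 were, against 3.25%. All sST2-KO values were below the WT values in 20 of them, an order found in 19.7% of all genes. They were above in 1, Slc7a5, an order found in 21.8% of all genes.

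Among 6 transporters, Slc25a44, the mitochondrial carrier of branched-chain amino acids, fell and Slc7a5, the light chain of a plasma membrane exchanger that imports leucine, rose. Slc25a44 measured 81.7, 86.7 and 103 CPM in WT and 47.4, 51.4 and 30.8 CPM in sST2-KO mice (log2 fold change -1.07, standard error 0.23, adjusted p = 0.0232 by edgeR). Slc7a5 stood at 4.29, 9.33 and 6.16 CPM in WT and at 12.6, 33.1 and 28.2 CPM in sST2-KO mice (log2 fold change 1.90, standard error 0.43, adjusted p = 0.0264 by edgeR). Its call was lost without WT replicate 1, WT replicate 3, sST2-KO replicate 2 or sST2-KO replicate 3, when its log2 fold change was 1.61 to 1.85. Slc3a2, the heavy chain that pairs with it, did not pass (log2 fold change -0.64, adjusted p = 0.211 by edgeR). Between the groups, the immune and proliferation markers given beside Bcat1 moved in the direction of Slc7a5. Within the sST2-KO group, Slc7a5 was highest in replicate 2, where the macrophage, T cell and neutrophil sums were lowest. The part of these cells in the level of Slc7a5 was not tested.

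In the leucine arm, Mccc2, the partner subunit of Mccc1, fell (log2 fold change -1.59, adjusted p = 0.0206 by edgeR). Auh, the hydratase of the next step, had all sST2-KO libraries below WT and a log2 fold change of -0.91, but did not pass (adjusted p = 0.0544 by edgeR). Isoleucine and shared enzymes were lower without overlap in 4 of 4 cases, and 3 were called lower. Acat1, the mitochondrial thiolase, was at 368, 503 and 623 CPM in WT and at 201, 216 and 95.4 CPM in sST2-KO mice. Acadsb, the acyl-CoA dehydrogenase of the isoleucine arm, did not pass (log2 fold change -0.55, adjusted p = 0.141 by edgeR).

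In the valine arm, Acad8, which oxidizes isobutyryl-CoA, fell from 47.0, 55.0 and 68.2 CPM in WT to 32.1, 30.1 and 22.8 CPM in the sST2-KO group (adjusted p = 0.0224 by edgeR). Hibadh, which follows Hibch, fell as well (adjusted p = 0.0400 by edgeR, log2 fold change -1.12), but its call was lost on leaving out any 1 of the 6 libraries (adjusted p 0.0526 to 0.138). Aldh6a1, the last enzyme of this arm, had all sST2-KO libraries below WT and a log2 fold change of -1.05, but did not pass (adjusted p = 0.0853 by edgeR). Propionyl-CoA from isoleucine and valine is carried to succinyl-CoA by 6 listed genes, of which 5 were called lower. Mcee, the epimerase, measured 47.0, 40.8 and 65.7 CPM in WT and 14.4, 19.3 and 12.8 CPM in sST2-KO mice, with the lowest adjusted p of the 29 genes (log2 fold change -1.72, adjusted p = 0.0135 by edgeR). The carboxylase subunits Pcca and Pccb, the mutase Mmut (Mut in the table) and its chaperone Mmaa had log2 fold changes of -1.59, -1.79, -1.19 and -1.26, and all 4 passed.

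Of 3 enzymes that handle the amino group, 0 passed edgeR's test, and 1, Glud1, had an unadjusted p under 0.05. Glud1, glutamate dehydrogenase, had a log2 fold change of -0.53 (adjusted p = 0.0866 by edgeR), Got2 one of 0.44 and Gpt2 one of -0.043. Of 3 transcriptional regulators, 2 were called lower. Ppargc1a, the coactivator of mitochondrial and thermogenic genes, measured 149.9, 252 and 171 CPM in WT and 20.4, 59.2 and 45.1 CPM in sST2-KO mice (log2 fold change -2.20, adjusted p = 0.0167 by edgeR). Klf15, a factor known to activate amino acid catabolism in liver and muscle, had a log2 fold change of -1.64 (adjusted p = 0.0497 by edgeR). The call of Klf15 was lost on leaving out any library except sST2-KO replicate 1 (adjusted p 0.0658 to 0.161), and its log2 fold change was -1.07 without WT replicate 3. Mlxipl did not pass (-0.42, adjusted p = 0.465 by edgeR).

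**Figure D3:**
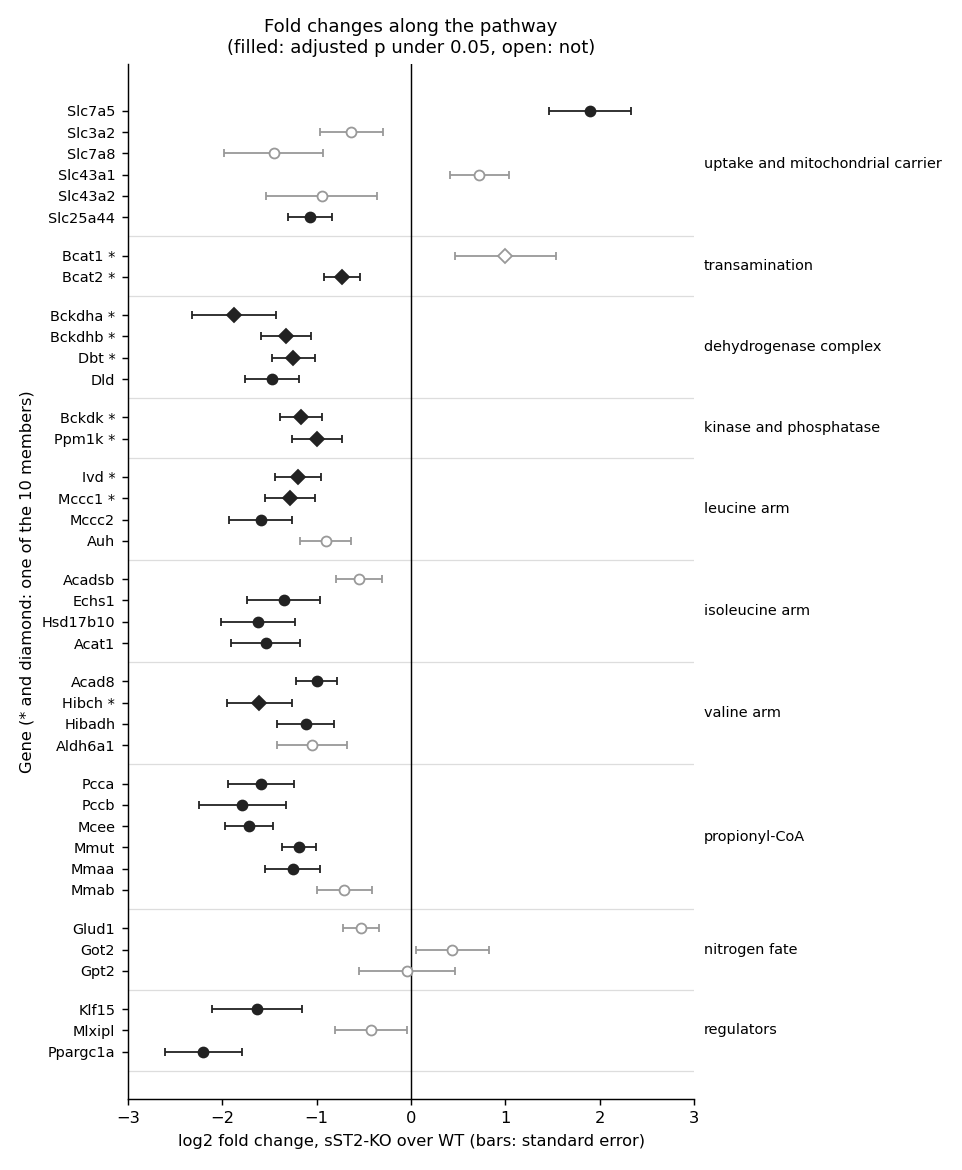
Log2 fold change of sST2-KO over WT for the 10 members and other genes of the pathway, with bars giving the standard error from edgeR's quasi-likelihood fit, filled points marking an adjusted p under 0.05 and open points the rest. Of the 10 members 9 were called lower, and Slc7a5 was the 1 gene called higher.

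The members were then set against Cs, the gene of citrate synthase, a matrix enzyme of the citric acid cycle. Cs itself fell from 1370, 1488 and 1974 CPM in WT to 476, 549 and 257 CPM in sST2-KO mice (log2 fold change -1.91, standard error 0.35, adjusted p = 0.0167 by edgeR). Relative to Cs counts in the same library, 10 of 10 members were higher in sST2-KO mice, with a median log2 difference of 0.72. This held for 97.5% of all genes tested, whose median log2 difference was 1.99, so the count is not a result about the members. Relative to Cs the groups did not overlap in 7 members (Bcat1, Bcat2, Dbt, Bckdk, Ppm1k, Ivd and Mccc1), against 88.5% of all genes tested. Each of the 7 had p = 0.1 in an exact two-sided permutation test, the smallest p that 3 libraries against 3 can give, so the design could not pass 0.05 for any.

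Ivd stood at 10.9%, 11.7% and 10.6% of Cs counts in WT and at 17.9%, 16.4% and 22.2% in sST2-KO mice. Bcat2 went from 9.56%, 9.40% and 8.66% to 19.3%, 17.7% and 30.1% of Cs counts, the widest log2 difference (1.24) after Bcat1 (2.74, or 1.86 without sST2-KO replicate 3). Bckdha was at 19.9%, 31.0% and 32.0% in WT and at 33.0%, 27.7% and 24.1% in sST2-KO mice, a log2 difference of 0.052 (p = 0.8, exact two-sided permutation test) that turned to -0.17 without WT replicate 1 and to -0.066 without sST2-KO replicate 1. Hibch (log2 difference 0.26) and Bckdhb (0.62) also had overlapping groups, each with p = 0.2 in the exact two-sided permutation test. The ratio is to a transcript and does not measure mitochondrial mass.

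**Figure D4:**
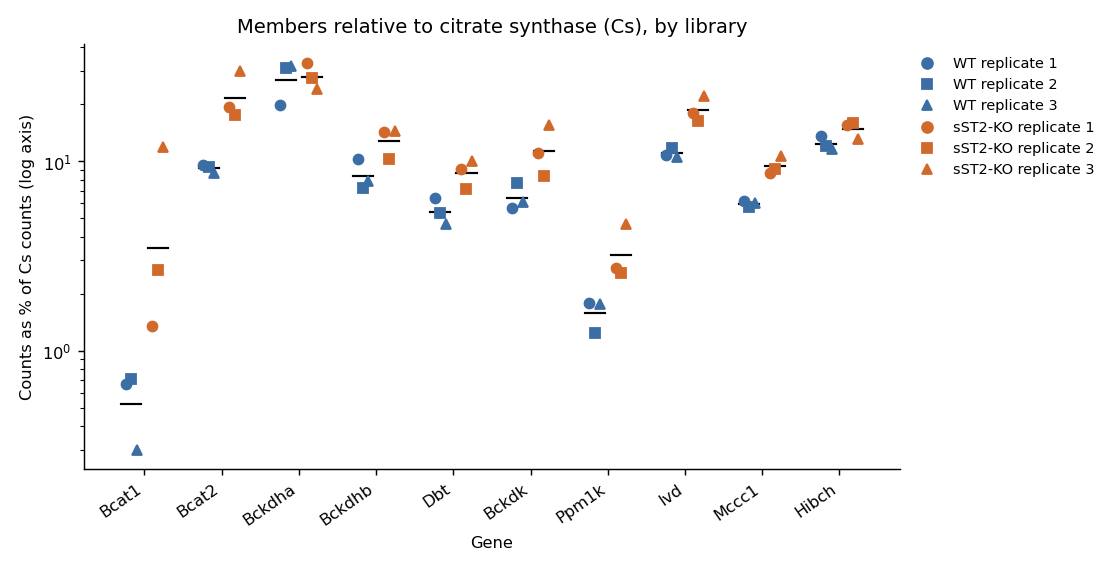
Counts of each member as a percent of Cs counts in the same library (log axis), with WT in blue, sST2-KO in orange, the marker shape giving the replicate number and the bars the geometric mean of 3 libraries. The groups separate upward in 7 genes, as in 88.5% of all genes tested, and overlap in Bckdha, Bckdhb and Hibch.

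The mean log2 CPM of the 10 members was 6.40, 6.49 and 6.76 in WT and 5.56, 5.68 and 5.17 in sST2-KO mice. Genes of the member, pathway and marker lists and Cs were left out of the ranking that follows. Among the other tested genes, 3 followed this mean most closely in log2 CPM over the 6 libraries. They were Cib2, which encodes a calcium- and integrin-binding protein, Mtor, the growth-control kinase, and Uqcrc2, a core subunit of respiratory complex III. Each had Pearson's r = 0.999. These were the highest correlations among the genes ranked, over 6 points that share library and scaling and that fall into 2 groups. Their log2 fold changes were -3.05, -1.56 and -1.74.

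Of the members, 9 overlap 20 other annotated genes on either strand, 6 of which are in the count table. The highest of these was Mccc1os, at 3.94% of the level of Mccc1. Reads of a member and of an overlapping gene on the opposite strand may not be told apart, since the strand setting of the counting is not given in the sources used here. Nothing in the labels tells whether replicate numbers pair the mice or whether tissue from several mice was pooled. The p-values therefore measure the spread between these 6 libraries.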

How the data were processed

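RNA-seq libraries were prepared with poly-A selection from denervated BAT of 3 WT and 3 sST2-KO mice. Per the submitters' processing notes and the study's methods, reads were checked with FastQC (0.12.1), aligned to mm39 with HISAT2 (2.2.1) and counted with htseq-count. The annotation, the strand setting and the counter's version are not given in the sources used here. The authors deposited raw read counts per gene symbol in a table of 35976 rows, of which 11377 held no count and 27 had dates in place of symbols. Total counts were 8159442 to 12874809 per library, and their number limits the precision of genes with few counts such as Bcat1.

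Counts were tested with edgeR (4.0.16, R 4.3.3) quasi-likelihood fits after TMM scaling and filterByExpr, comparing sST2-KO with WT, with Benjamini-Hochberg adjustment over 14542 genes and a threshold of 0.05. Standard errors were taken as the log2 fold change over the root of the F statistic. Ratios of counts within a library were compared by exact permutation tests (scipy 1.17.1). Coordinates and upstream windows came from GRCm39 with GENCODE vM39, the assembly of mm39. On simulated counts for this comparison, with 14355 genes tested and 100 genes changed per size, the test recovered 10% of genes changed by 1 log2 unit and 95% of those changed by 2, with 4 false calls. The genes named are the 10 members, the listed pathway genes, and the 3 tested genes outside all lists that were most like the members' mean. The members and lists were chosen with earlier results of these data known. Alternatives were DESeq2 (1.42.0), other scalings and filters, robust estimation, a replicate block and leaving out each library. Within each group, no library was a copy of another, as the chi-square of the counts per degree of freedom was 36.6 to 104. Pairs of a WT and an sST2-KO library were not compared in this way. Results for some items are not reported here.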

Additional observations from a re-analysis of the deposited data

How the results depend on the processing

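The 9 genes called lower remained lower, with an unadjusted p under 0.05, under all 13 alternative fits, but their adjusted p depended on the libraries used. The labels number the replicates alike in both groups and do not say whether the numbers pair the mice. Same-numbered libraries correlated at -0.058, 0.21 and -0.31 in their deviations. So few libraries cannot tell whether a pairing exists. With the replicate block, 0 members, 0 pathway genes lower, 0 pathway genes higher, 0 of all genes lower and 0 of all genes higher were called by edgeR, against 4623 genes at an unadjusted p under 0.05, and the 9 genes had adjusted p of 0.0681 to 0.104. The Bckdk to Ppm1k difference was -0.20 with and without the replicate block. The 2 are equal by arithmetic, so this is no check of that difference.

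Leaving out 1 library at a time gave 0 to 8 members called lower, 0 to 12 pathway genes lower, 0 to 1 higher, 22 to 1189 of all genes lower and 36 to 1502 higher. The fewest came without WT replicate 3, when the 9 genes had adjusted p of 0.0705 to 0.146, and 3797 genes an unadjusted p under 0.05. The same omissions gave a member median of -1.34 to -1.07, a Bckdk to Ppm1k difference of -0.38 to 0.10, a Bckdha to Cs difference of -0.17 to 0.17 and a Gpt2 log2 fold change of -0.87 to 0.24. The cause was not tested.

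Total-count scaling moved the median of all genes from 0.034 to 0.29, the member median to -0.96 and Gpt2 to 0.25. It called 891 genes lower and 2181 higher, against 1323 and 1524, and kept 7 members, without Bcat2 (log2 fold change -0.46, adjusted p = 0.0919) and Ppm1k (adjusted p = 0.0738). The fit without a filter called 8 members, without Bcat2 (adjusted p = 0.0573). DESeq2, RLE factors, robust estimation and a minimum of 10 counts in every library each called 9. At this depth and n, few changes near 1 log2 unit are recovered, so genes that did not pass may still differ.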
